A study of Mus musculus with 23 samples.

Results

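The macrophage genes examined here were 10 genes taken by name from a table of 54347 genes: Csf1r, Cx3cr1, Mrc1, Adgre1, C1qa, C1qb, C1qc, Cd68, Lyz2 and Tyrobp. All 10 were found through their Ensembl identifiers. RNA was sequenced from 23 libraries of cells dissected from the labial cervical loop, where the epithelium of the mouse lower incisor folds at the growing end of the tooth. The tissue was taken at postnatal day 2 from Sox2-GFP mice, a line in which the native Sox2 promoter drives a green fluorescent protein. Dissociated cells were sorted by fluorescence into a Sox2-positive fraction, called dental epithelial stem cells in the labels, and a Sox2-negative fraction. Both fractions came from the same reporter line, so all groups carry the reporter, and the labels name no treatment. The work was done in 2 batches, on separate days and with different mice. Batch A gave 6 Sox2-negative and 6 Sox2-positive libraries, and batch B gave 4 Sox2-negative and 7 Sox2-positive libraries. The labels do not say whether libraries of a batch came from separate mice, so the p-values below measure the spread between libraries, which may be technical. No leukocyte marker is named in the sort.

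Macrophages are phagocytes that settle in nearly every tissue, where they clear dying cells and remodel matrix. Their survival depends on CSF1R, the receptor tyrosine kinase for the cytokines CSF1 and interleukin 34. They are a main source of C1q, the recognition component of the classical complement pathway, whose A, B and C chains are assembled together into a single hexameric protein. TYROBP (DAP12) is a transmembrane adaptor that passes signals from activating receptors such as TREM2 to the kinase SYK. Several of the genes are shared with related cells: Lyz2 and Tyrobp are also expressed by neutrophils and monocytes, and Csf1r and Cd68 by osteoclasts, which resorb bone around the developing tooth.

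C1qa, C1qb and C1qc lie side by side on the minus strand of chromosome 4 (chr4:136880129-136898803, GRCm38), within 18.7 kb. Promoter stretches are shown for C1qb and C1qc, which were read in no Sox2-positive library, and for Lyz2 and Cd68, which were read in 12 and 13 of the 13. The RefSeq promoter table (GRCm38.p6) held 6 of the 10 members, C1qb, C1qc, Lyz2, Cd68, Mrc1 and Cx3cr1. Each stretch ends just before the first annotated exon, is written 5′ to 3′ on the strand of its gene, and is shown in lower case with matches in capitals to GAGGAA, the core of the site bound by PU.1, the ETS-family factor required for macrophage development. The motif was searched on both strands, so its reverse complement TTCCTC is also in capitals, and in C1qc the capitals cover the longer form GAGGAAGT on the reverse strand, which contains the core.
C1qb (chr4:136886201-136886450, minus strand): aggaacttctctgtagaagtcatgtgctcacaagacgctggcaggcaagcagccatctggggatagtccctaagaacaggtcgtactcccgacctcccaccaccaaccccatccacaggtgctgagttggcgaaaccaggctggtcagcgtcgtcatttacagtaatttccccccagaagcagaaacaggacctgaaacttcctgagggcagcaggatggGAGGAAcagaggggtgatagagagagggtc
C1qc (chr4:136893066-136893164, minus strand): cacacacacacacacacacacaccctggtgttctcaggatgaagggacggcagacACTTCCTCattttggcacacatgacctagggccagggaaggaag
Lyz2 (chr10:117282322-117282522, minus strand): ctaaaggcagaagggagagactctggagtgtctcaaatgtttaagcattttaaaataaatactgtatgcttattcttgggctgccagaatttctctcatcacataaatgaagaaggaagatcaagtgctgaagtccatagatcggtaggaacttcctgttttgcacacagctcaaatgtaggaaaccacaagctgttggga
Cd68 (chr11:69666171-69666420, minus strand): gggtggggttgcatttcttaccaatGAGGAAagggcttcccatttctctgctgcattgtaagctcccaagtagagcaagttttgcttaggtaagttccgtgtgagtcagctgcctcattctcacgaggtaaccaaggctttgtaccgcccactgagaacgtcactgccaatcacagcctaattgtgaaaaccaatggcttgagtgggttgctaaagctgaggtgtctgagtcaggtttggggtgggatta
The core was present in C1qb and Cd68, in 250 bases each, where 23.3% of all 32851 RefSeq promoter windows of that length hold it. In the 99 bases of C1qc the longer form was found, which 0.776% of windows of that length hold. Lyz2 had no match in 201 bases (18.8% of windows of that length hold the core). Mrc1, read in 6 of the 13 Sox2-positive libraries and not shown, held the core 3 times in 228 bases (21.2% of windows of that length hold it). These matches describe the letters only.

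The libraries held between 2305778 and 9541443 estimated counts, and 3 counts, taken as the smallest readable level, corresponded to 0.355 to 1.29 CPM (counts scaled to a common library size of 1e+06). Intervals and floors cover counting error only. Sox2, the gene of the sorted reporter, averaged 7.24 CPM (batch A) and 16.4 CPM (batch B) in Sox2-positive libraries, and its Sox2-negative means were 0.0415 and 0.285 CPM. All 8 epithelial marker genes were higher in Sox2-positive cells in edgeR's quasi-likelihood test over both batches, and all 7 mesenchymal marker genes were lower. In that test 4288 of 17190 genes were called higher and 5591 lower. The Sox2-positive libraries thus carried the defining genes of epithelium, as labelled, while mesenchymal genes were still present there at 12.2% (batch A) and 5.41% (batch B) of their summed Sox2-negative level.

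All 10 macrophage genes were lower in Sox2-positive than in Sox2-negative cells. Their summed level averaged 1141 ± 54.0 CPM (SD, n = 6) in batch A Sox2-negative libraries and 8.11 ± 3.32 CPM (n = 6) in the Sox2-positive ones. In batch B it averaged 237.1 ± 32.1 CPM (n = 4) and 7.29 ± 1.37 CPM (n = 7). Each of the 10 passed edgeR's quasi-likelihood test over both batches at an adjusted p under 0.05, with adjusted p from 1.97e-23 for Tyrobp to 5.08e-07 for Mrc1. In that fit 32.5% of 17190 genes were called lower and 57.5% were called in either direction. A gene near 0 in Sox2-positive libraries passes the filter on low counts only through Sox2-negative libraries, so it could hardly be called higher. The median fitted log2 fold change of the 10 genes was -7.36, against -0.12 for all genes tested. Fewer macrophages in a sort and less RNA per macrophage cannot be told apart in these bulk libraries.

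In batch A alone all 10 genes were called lower by edgeR (24.2% of 14296 genes called lower, 43.4% in either direction). In batch B alone 8 genes had enough counts to be tested and all 8 were called lower (27.6% of 15765 genes called lower, 54.7% in either direction), while Adgre1 and Mrc1 failed the filter on low counts there. Many Sox2-positive libraries had 0 counts, so the fitted values of those genes, and with them the fitted median, depend on a small count added by the fit. Ratios of levels pooled over libraries are given for single genes, with 95% exact intervals for counting error, and with a lower bound, set against 3 counts per library, where every Sox2-positive library was at 0. On that scale the median log2 difference of the 10 genes was -7.31 or lower in batch A, with 2 genes at their bound. In batch B it was -4.35 or lower, with 6 genes at their bound. A bound depends on depth and on the Sox2-negative level, which was lower in batch B, so this median cannot be compared with batch A.

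**Figure D1:**
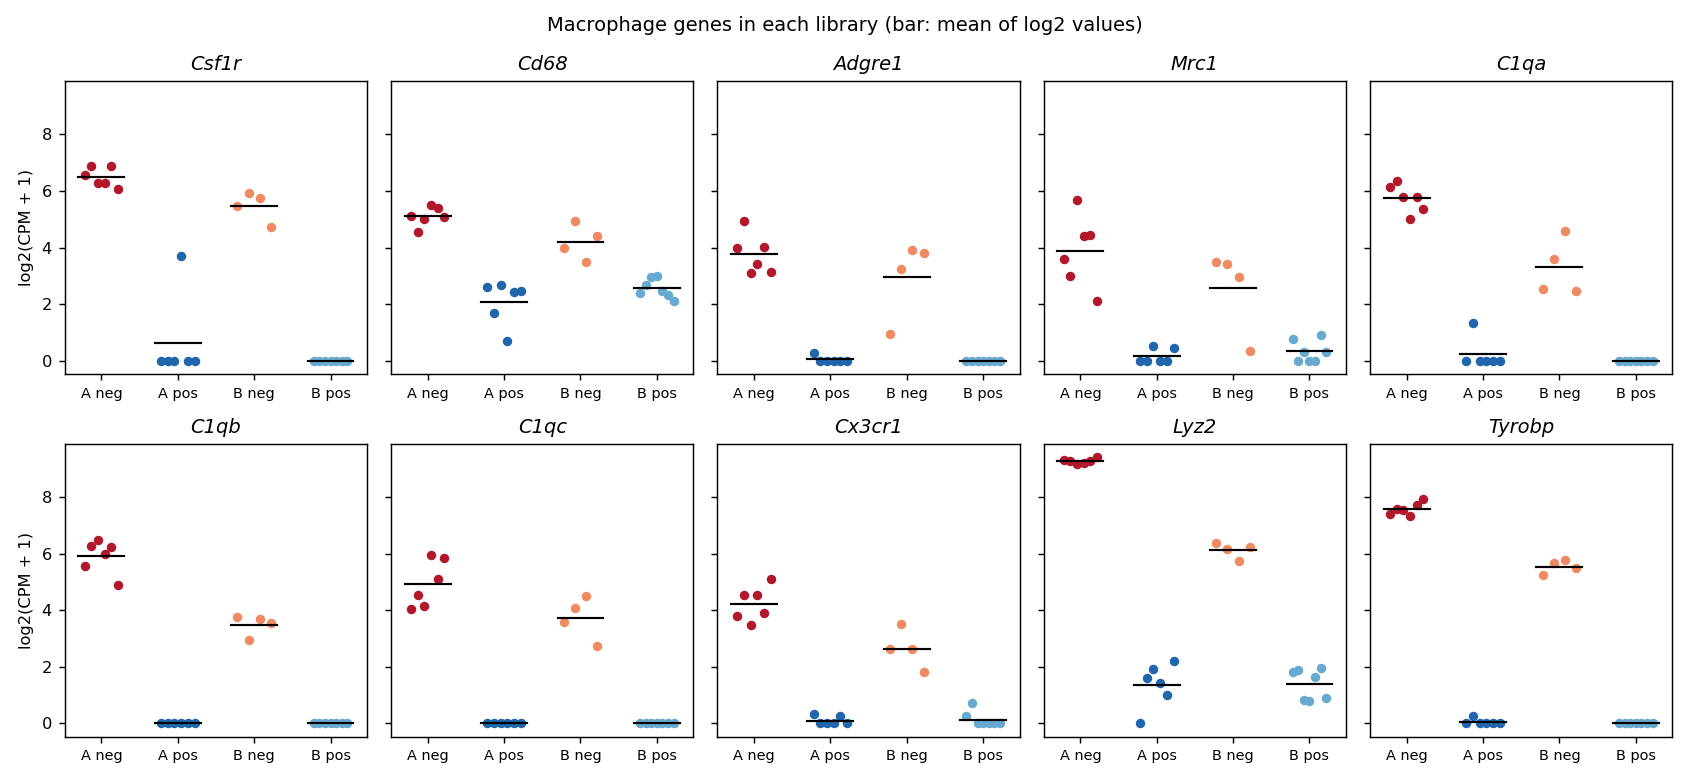
Level of each macrophage gene in each of the 23 libraries, as log2(CPM + 1); each point is a library, the bar is the mean of the log2 values, and A, B, neg and pos stand for batch A, batch B, Sox2-negative and Sox2-positive. Sox2-positive libraries lie at or near 0 for every gene except Cd68 and, at a lower level, Lyz2, and the single raised Csf1r point is a batch A Sox2-positive library at 11.98 CPM.

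Among the surface receptors, Csf1r was the most counted. It ranged from 66.5 to 116.2 CPM in batch A Sox2-negative libraries, with a median of 84.4, and was at 43.3, 59.8, 53.0 and 25.2 CPM in the 4 batch B Sox2-negative libraries. It was at 0 in 12 of the 13 Sox2-positive libraries and at 11.98 CPM (50.6 counts) in batch A Sox2-positive replicate 4. No Sox2-positive library reached the Sox2-negative range, and the batches did not overlap within Sox2-negative cells. Csf1r was 56.6-fold higher in Sox2-negative cells in batch A (95% interval 42.6 to 75.7), with all Sox2-positive counts from that 1 library, and at least 63.2-fold higher in batch B (edgeR over both batches, adjusted p = 1.62e-08). Exons of Csf1r (chr18:61100598-61132149) overlap the antisense gene Hmgxb3, and no strand setting is given in the sources used here. Hmgxb3 had 143.2 counts in batch A Sox2-positive replicate 4 and 115.4 to 280.8 in the other batch A Sox2-positive libraries. Whether reads of Hmgxb3 were counted as Csf1r was not tested.

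The chemokine receptor Cx3cr1, which binds fractalkine, ranged from 10.1 to 33.7 CPM in batch A Sox2-negative libraries (median 18.1). Its 4 batch B Sox2-negative values were 5.21, 10.4, 5.15 and 2.53 CPM. Among Sox2-positive libraries the highest values were 0.249 CPM (batch A) and 0.656 CPM (batch B), below every Sox2-negative library. The ratio of Sox2-negative to Sox2-positive levels was 283.6 in batch A (95% interval 81.2 to 2442) and 34.8 in batch B (15.1 to 93.1), the first resting on 2.08 counts over 6 Sox2-positive libraries. In batch B, 4.65 of the 5.82 Sox2-positive counts came from replicate 2, and without that library the edgeR log2 fold change over both batches moved from -6.33 to -7.29. The call over both batches had an adjusted p of 4.997e-09 in edgeR's quasi-likelihood test.

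Mrc1, the mannose receptor CD206, was the most uneven of the genes in batch A Sox2-negative libraries. It ranged from 3.34 to 50.3 CPM there with a median of 15.6, a coefficient of variation of 0.904. In batch B Sox2-negative libraries it was at 10.4, 9.68, 6.83 and 0.263 CPM. The last of these lay below the highest batch B Sox2-positive library, at 0.894 CPM, so the populations overlapped for Mrc1 in batch B. Its ratio between the populations was 123.8 in batch A (95% interval 48.6 to 353.4) and 22.1 in batch B (12.3 to 45.8).

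Adgre1 encodes F4/80, the classical surface marker of mouse macrophages. It ranged from 7.59 to 29.4 CPM in batch A Sox2-negative libraries (median 12.2), and was at 0.919, 8.44, 14.0 and 13.005 CPM in batch B. The batches overlapped widely. Of the 13 Sox2-positive libraries, only batch A replicate 1 held any Adgre1, at 0.225 CPM or 1.02 counts. The batch A ratio was 447.9 (95% interval 81.1 to 18014), and in batch B Adgre1 was at least 12.7-fold higher in Sox2-negative cells (edgeR over both batches, adjusted p = 1.02e-11).

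The C1q chains were nearly absent from Sox2-positive cells. C1qb and C1qc were at 0 in all 13 Sox2-positive libraries, and C1qa in all but batch A replicate 2, which was at 1.53 CPM (8.53 counts). In batch A Sox2-negative libraries C1qa ranged from 31.2 to 80.5 CPM (median 54.5). C1qb ranged from 29.1 to 87.5 CPM there (median 68.7), and C1qc from 15.3 to 60.4 CPM (median 28.1). Every Sox2-negative library held all 3 chains, and no Sox2-positive library came near them.

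In the 4 batch B Sox2-negative libraries C1qa was at 4.76, 11.2, 23.3 and 4.51 CPM. C1qb was at 12.5, 6.64, 11.9 and 10.6 CPM in the same libraries, and C1qc at 11.1, 15.8, 21.9 and 5.61 CPM. C1qa and C1qb did not overlap between the batches, whereas C1qc did. Against Sox2-positive cells, C1qb was at least 106.3-fold higher in batch A and at least 14.5-fold higher in batch B. For C1qc the bounds were 57.9-fold and 18.9-fold, and for C1qa the ratio was 203.4 in batch A (95% interval 101.2 to 422.3) and the bound 15.2-fold in batch B. Adjusted p over both batches (edgeR) were 2.00e-11 for C1qa, 4.36e-11 for C1qb and 1.97e-09 for C1qc.

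The chains did not keep a fixed proportion from library to library. Per exon length, the ratio of C1qa to C1qc was 8.44, 6.64 and 6.05 in batch A Sox2-negative replicates 1, 2 and 3, and 0.960, 3.00 and 1.31 in replicates 4, 5 and 6. C1qa thus exceeded C1qc per length in 5 of these 6 libraries and was about level with it in replicate 4. The C1qc length of 1931 bases merges 2 annotated transcripts, against 1040 bases for the 1 C1qa transcript, and the order depends on it. In counts C1qc exceeded C1qa in replicate 4 (232.0 against 120.0) and replicate 6 (211.9 against 149.8). These are 3 genes of a single protein complex and a single gene cluster, each measured with 59.7 or more counts in every batch A Sox2-negative library. The cause of the uneven proportions was not tested.

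Cd68 and Lyz2 encode proteins of the lysosome and its products, and these were the members read in most Sox2-positive libraries. Cd68, a lysosomal membrane glycoprotein, ranged from 22.2 to 44.1 CPM in batch A Sox2-negative libraries (median 33.5) and was at 14.8, 30.0, 10.2 and 20.4 CPM in batch B. The Sox2-positive libraries ranged from 0.611 to 5.48 CPM (median 4.45) in batch A, and from 3.35 to 7.06 CPM (median 4.59) in batch B. The populations did not overlap in either batch, but every Sox2-positive library held Cd68 counts. Its mean Sox2-positive level was 10.8% of the Sox2-negative level in batch A and 26.9% in batch B. The fitted log2 fold change over both batches was -2.61 (SE 0.31, adjusted p = 7.53e-08 in edgeR), the smallest change of the 10 genes.

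Lyz2, which encodes lysozyme M, was the most abundant and the most even member in batch A Sox2-negative libraries. It ranged from 573 to 681 CPM there (median 615, coefficient of variation 0.0602) and was at 82.0, 70.9, 52.9 and 74.6 CPM in batch B. The Sox2-positive libraries ranged from 0 to 3.64 CPM (batch A) and from 0.728 to 2.91 CPM (batch B). The 4 groups thus formed 3 separate ranges, with the Sox2-positive libraries of both batches in the lowest. The Sox2-positive mean was 0.2995% of the Sox2-negative mean in batch A and 2.57% in batch B. EdgeR fitted a log2 fold change of -7.00 over both batches (SE 0.41, adjusted p = 7.80e-14). Of the 31-base stretches of the Lyz2 transcript, 32.8% also occur in another gene, nearly always its neighbour copy Lyz1, so the split of reads between them is uncertain. Lyz1 was assigned at most 25.5 counts in batch A Sox2-negative libraries and 0 in the other groups.

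Tyrobp had the strongest test of the 10 genes. It ranged from 159 to 243 CPM in batch A Sox2-negative libraries (median 187), and was at 36.7, 50.1, 53.8 and 44.1 CPM in batch B. It was at 0 in 12 of 13 Sox2-positive libraries, the exception being batch A replicate 2 with 1.17 counts. The groups were far apart. Tyrobp was 5078-fold higher in Sox2-negative cells in batch A, where the few Sox2-positive counts leave a 95% interval of 1069 to 235468, and at least 64.3-fold higher in batch B.

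Between batches, within Sox2-negative cells, every macrophage gene had a lower mean in batch B. The differences were unequal. By means, Lyz2 was 8.84-fold lower, C1qb 6.04-fold, C1qa 5.04-fold, Tyrobp 4.17-fold, Cx3cr1 3.30-fold, Mrc1 2.76-fold, C1qc 2.52-fold, Csf1r 2.00-fold, Cd68 1.82-fold and Adgre1 1.55-fold. Without batch B Sox2-negative replicate 3, C1qa was 8.09-fold lower, and without batch A Sox2-negative replicate 3, Mrc1 was 1.83-fold lower. In edgeR's fit of the 4 group means, 4 of the 10 genes were called lower in batch B, and none was called higher (of 17190 genes, 5.35% were called lower, 5.85% higher and 11.2% in either direction). The median log2 difference of the 10 genes was -1.58, and that of all genes was -0.00.

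The called genes were Lyz2, with a log2 difference of -3.14 (SE 0.30, edgeR adjusted p = 5.35e-08), Tyrobp at -2.06 (SE 0.22, adjusted p = 2.87e-06), C1qb at -2.59 (SE 0.42, adjusted p = 0.000799) and C1qa at -2.34 (SE 0.72, adjusted p = 0.0390). For these genes, and for Csf1r, no batch B library reached the lowest batch A library. The share of all genes whose batches separate in this way was not computed. The C1qa call was lost in 8 of the alternatives, among them leaving out batch A Sox2-negative replicate 1, 2, 3 or 5 or batch B Sox2-negative replicate 1, 2 or 4, with adjusted p up to 0.300.

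The other 6 genes did not pass the test, with log2 differences from -0.64 for Adgre1 to -1.71 for Cx3cr1 and edgeR adjusted p from 0.124 to 0.626. A gene that missed the threshold is not shown to be level. Csf1r stood at -1.001 (SE 0.84, edgeR adjusted p = 0.506), although its batches did not overlap. Without batch A Sox2-positive replicate 4, whose counts also enter the shared estimate of spread, the same difference had an SE of 0.31 (adjusted p = 0.0470). In a fit of the 10 Sox2-negative libraries alone it was -1.02 with an SE of 0.27 (adjusted p = 0.0385). That fit, added after the values were seen, called 5 of the 10 genes, and 933 genes in all.

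**Figure D2:**
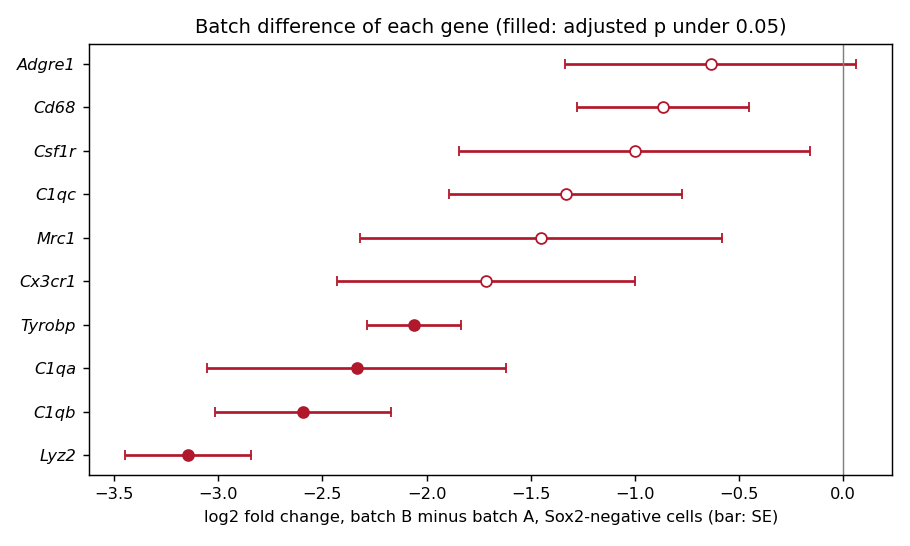
Log2 fold change of each macrophage gene, batch B minus batch A, within Sox2-negative cells; points are edgeR estimates, bars are 1 SE on each side, and filled points have an adjusted p under 0.05. All 10 points lie left of 0, from -0.64 for Adgre1 to -3.14 for Lyz2.

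The unequal differences changed the make-up of the macrophage gene counts. Lyz2 took 54.3% ± 2.68 (SD, n = 6) of the 10 genes' counts in batch A Sox2-negative libraries and 30.3% ± 8.14 (n = 4) in batch B. Csf1r took 7.92% ± 1.69 and 18.7% ± 4.24, and Cd68 3.03% ± 0.735 and 7.96% ± 3.23. The batches did not overlap for the Lyz2 share, which ran from 51.6% to 57.7% in batch A and from 20.9% to 37.2% in batch B, nor for the Csf1r share. Tyrobp kept a like share, 16.8% ± 1.99 and 19.5% ± 2.53.

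**Figure D3:**
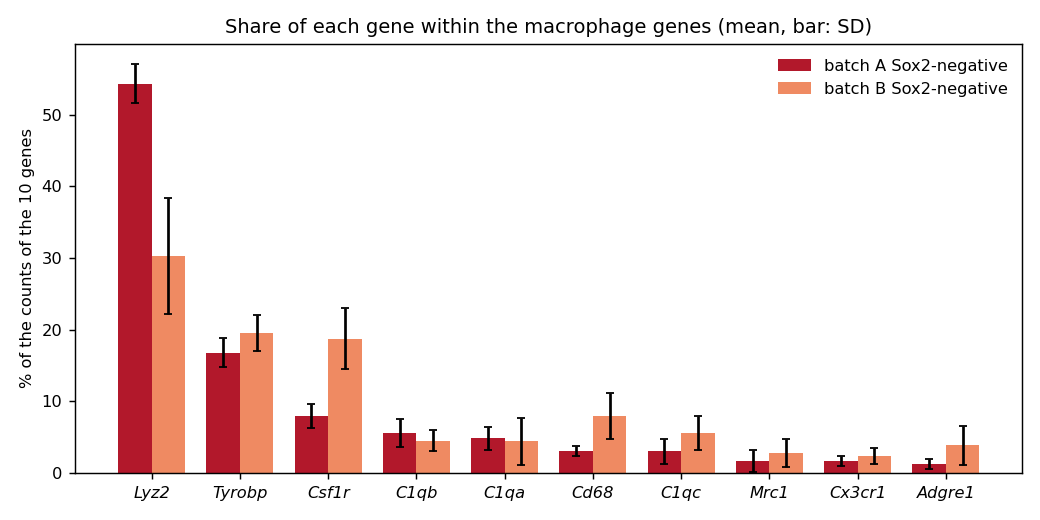
Share of each gene in the counts of the 10 macrophage genes, in percent, for batch A (6 libraries) and batch B (4 libraries) Sox2-negative cells; bars are means and error bars are SD. Lyz2 takes 54.3% in batch A and 30.3% in batch B, and Csf1r takes 7.92% and 18.7%.

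Levels of different genes were compared only per length, as counts divided by the merged exon length of each gene in GENCODE M21 and scaled to the same sum in every library (TPM). In batch A Sox2-negative cells (n = 6, SD) Lyz2 came first at 1146 ± 96.9 TPM, then Tyrobp at 701 ± 107.5, C1qb at 139.8 ± 45.2 and C1qa at 129 ± 44.0 TPM. Cd68 followed at 66.5 ± 14.9, C1qc at 42.9 ± 24.9 and Csf1r at 38.1 ± 8.84 TPM. Last came Adgre1 at 10.6 ± 6.07, Cx3cr1 at 10.4 ± 4.71 and Mrc1 at 7.08 ± 6.27 TPM. Neighbours in this order had overlapping ranges except Lyz2 and Tyrobp, Tyrobp and C1qb, and Csf1r and Adgre1. In batch B Sox2-negative cells Tyrobp came first, at 145.9 ± 26.7 TPM (n = 4), with Lyz2 next at 111.7 ± 18.1 TPM, and these ranges overlapped. The lowest 3 genes were the same in both batches: Adgre1, Cx3cr1 and Mrc1.

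The difference between populations was itself compared between batches. Only Lyz2 passed this interaction test, by 3.11 on the log2 scale (SE 0.48, edgeR adjusted p = 0.000103), a smaller gap in batch B than in batch A. In this test 2.82% of all genes were called higher and 7.04% in either direction. Lyz2 was at 1.86 ± 1.28 CPM (n = 6) and 1.80 ± 0.972 CPM (n = 7) in the Sox2-positive libraries of batches A and B, while its Sox2-negative means were 619.6 and 70.1 CPM. For C1qb and C1qc, at 0 in the Sox2-positive libraries of both batches, the interaction has no usable estimate. Csf1r, Adgre1, C1qa and Tyrobp were each read in 1 of the 13 Sox2-positive libraries, so their interactions rest on that library. Missing the threshold does not show that the gap of a gene was the same in both batches.

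Within Sox2-positive cells, Csf1r was the single gene called between batches (5.54% of all genes called lower, 10.4% in either direction), as lower in batch B with an edgeR adjusted p of 0.0321. This call rested on batch A Sox2-positive replicate 4, and without it Csf1r was at 0 in every Sox2-positive library (adjusted p = 1). It was also lost without batch B Sox2-positive replicate 1, 2, 3 or 6, with edgeR adjusted p from 0.0503 to 0.0591. In batch A Sox2-positive replicate 4 the other members were not raised beside Csf1r: Cd68 was at 0.611 CPM, the lowest of all Sox2-positive libraries, Lyz2 was at 1.67 CPM, and C1qa, C1qb, C1qc, Adgre1, Mrc1, Cx3cr1 and Tyrobp were at 0.

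Genes that work with the members were taken from 5 further lists. Of the receptors' ligands, Csf1 was lower in Sox2-positive cells, with means of 8.27 CPM (batch A) and 8.36 CPM (batch B) against 35.3 and 29.05 CPM in Sox2-negative cells (log2 fold change -1.97, SE 0.31, edgeR adjusted p = 4.56e-06). Cx3cl1, which encodes fractalkine, was higher in Sox2-positive cells, at 8.56 and 5.48 CPM against 1.11 and 1.42 CPM (log2 fold change 2.43, SE 0.72, edgeR adjusted p = 0.00556). Il34 was at 3.30 and 1.11 CPM against 2.94 and 1.72 CPM and did not pass (edgeR adjusted p = 0.839). In the fits of each batch alone, Cx3cl1 was called higher in batch A (log2 fold change 2.95) but not in batch B (1.97). By these levels the receptors CSF1R and CX3CR1 were read in the Sox2-negative fraction, as was most Csf1, while Cx3cl1 was read mainly in the Sox2-positive fraction.

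Of 8 classical complement partners of C1q, 6 were called, where 57.5% of all genes were: 5 were lower in Sox2-positive cells (C1ra, C1s1, C3, Serping1 and Cd93), Calr was higher, and C2 and C4b did not pass. C1ra, a protease bound to C1q, averaged 35.6 and 39.0 CPM in Sox2-negative cells of batches A and B and 0.308 and 0.838 CPM in Sox2-positive cells (log2 fold change -6.12, SE 0.50, edgeR adjusted p = 5.61e-11). It did not pass between batches within Sox2-negative cells (log2 difference 0.13, adjusted p = 0.923). C1ra is also made by mesenchymal cells. Cd93, an endothelial and myeloid surface protein, averaged 178 and 67.2 CPM in Sox2-negative cells and was lower in Sox2-positive cells by a log2 fold change of -8.24 (SE 0.32). Calr, the chaperone calreticulin, differed by 0.30 (SE 0.12, edgeR adjusted p = 0.0383), and its means had opposite orders in the batches: 444.1 CPM in Sox2-negative and 775 CPM in Sox2-positive cells of batch A, but 612 and 513 CPM in batch B. The Calr call was lost without batch A Sox2-negative replicate 2, 3, 4 or 5 or batch A Sox2-positive replicate 4, with adjusted p from 0.0637 to 0.0810, and with the replicate number as a block (0.0922).

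Of 10 genes for TYROBP partners and signalling, 8 could be tested and all 8 were lower in Sox2-positive cells, where 32.5% of all genes were. Those near 0 in Sox2-positive cells passed the filter only through Sox2-negative libraries, so their direction was nearly fixed. Fcer1g, the related adaptor of Fc receptors, averaged 175 and 35.4 CPM in Sox2-negative cells of batches A and B and at most 0.266 CPM in Sox2-positive cells. Between batches within Sox2-negative cells its log2 difference of -2.31 (SE 0.30, edgeR adjusted p = 6.86e-06) stood beside the -2.06 of Tyrobp. Trem2, the macrophage receptor that signals through TYROBP, averaged 17.1 CPM (batch A) and 9.41 CPM (batch B) in Sox2-negative cells and at most 0.0199 CPM in Sox2-positive cells. Syk, the kinase downstream, was at 24.7 and 17.2 CPM in Sox2-negative and 2.81 and 3.38 CPM in Sox2-positive cells (log2 fold change -2.77, SE 0.43, edgeR adjusted p = 4.65e-06). Plcg2, a phospholipase that SYK activates, had a log2 fold change of -1.30 (SE 0.45, adjusted p = 0.0150), a call lost without batch B libraries 1 and 2 (adjusted p = 0.0554).

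Among 10 transcription factors of macrophages, 9 were tested, 7 were lower in Sox2-positive cells (32.5% of all genes were) and Runx1 was higher. Spi1, which encodes PU.1, was at 39.3 and 12.2 CPM in Sox2-negative cells of batches A and B and at 0 in every Sox2-positive library (edgeR adjusted p = 1.12e-10). It was also lower in batch B within Sox2-negative cells, by a log2 difference of -1.68 (SE 0.45, adjusted p = 0.0227). Runx1, a blood-lineage factor that is also known from epithelia, averaged 133 and 239.7 CPM in Sox2-positive cells against 33.2 and 38.6 CPM in Sox2-negative cells (log2 fold change 2.29, SE 0.22, edgeR adjusted p = 1.25e-09). Maf had a fitted log2 fold change of -0.50 (SE 0.19, edgeR adjusted p = 0.0300), but its means had opposite orders in the batches, 111.0 CPM in Sox2-negative and 50.9 CPM in Sox2-positive cells of batch A, and 140.1 and 171.6 CPM in batch B. The Maf call was lost in 16 alternatives, with adjusted p from 0.0506 to 0.396, among them leaving out batch A Sox2-negative replicate 4, 5 or 6, batch A Sox2-positive replicate 1, 2, 3, 5 or 6, or batch B Sox2-positive replicate 4, 5, 6 or 7.

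Of 26 other macrophage genes, 18 were tested and 16 were lower in Sox2-positive cells (32.5% of all genes were), while Axl and Mertk did not pass. Stab1, a scavenger receptor, averaged 122 and 69.4 CPM in Sox2-negative cells of batches A and B and at most 0.738 CPM in Sox2-positive cells. Ptprc, the pan-leukocyte antigen CD45, averaged 65.1 and 22.4 CPM against 0.0916 and 0.0865 CPM. Between batches within Sox2-negative cells 4 of the 18 were called lower in batch B and none higher (5.35% of all genes were called lower and 5.85% higher). The median log2 difference of these 18 was -1.19. Axl, a receptor kinase that binds GAS6, was at 37.9 and 54.6 CPM in Sox2-negative and 54.9 and 47.2 CPM in Sox2-positive cells, and its edgeR adjusted p was 0.312.

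The 5 genes outside the members with the profile most like the members' mean were Ncf4, Wfdc21, Stfa3, Stfa2l1 and Ifitm6. Likeness was the root mean square difference of centred log2(CPM + 1) values over 23 libraries, among 17190 genes. These differences ran from 0.24 for Ncf4 to 0.36 for Ifitm6. Of the members themselves, C1qb was nearest to the members' mean (0.45, rank 13 of all genes), followed by C1qc (rank 16) and C1qa (rank 28), and Cd68 was farthest (1.24, rank 576). Ncf4, a subunit of the phagocyte oxidase, averaged 35.2 ± 10.1 CPM (n = 6) and 10.2 ± 1.95 CPM (n = 4) in Sox2-negative cells of batches A and B. It was at 0 in all 13 Sox2-positive libraries. Stfa3 and Stfa2l1 belong to a family of near-identical stefin genes, so their counts are uncertain.

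Because the members are shared with other blood cells, markers of those cells are given beside the batch difference. The 11 neutrophil genes summed to 4506 ± 273.7 CPM (n = 6) in batch A and 697.9 ± 47.9 CPM (n = 4) in batch B Sox2-negative libraries, 6.46-fold lower, with no overlap between the batches, and 9 of them were called lower in batch B by edgeR. S100a8 averaged 1378 and 234 CPM, with a log2 difference of -2.56 (SE 0.16, adjusted p = 1.25e-09). The 8 mast cell genes summed to 958.7 and 57.3 CPM, 16.7-fold lower, and 4 of 6 tested were called lower. In this comparison 5.35% of all genes were called lower. The part of these cells in the lower Lyz2 and Tyrobp of batch B was not tested.

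The 9 osteoclast genes summed to 1242 ± 82.3 CPM (n = 6) in batch A and 848.1 ± 82.6 CPM (n = 4) in batch B, 1.46-fold lower, and 2 of 7 tested genes, Acp5 and Ctsk, were called lower. The Ctsk call was lost in 12 alternatives, with adjusted p from 0.0525 to 0.240, among them leaving out batch A Sox2-negative replicate 2, 3 or 6, any batch B Sox2-negative library, or batch B Sox2-positive replicate 3, 6 or 7. Without Mmp9 the sum was 768.6 and 320.1 CPM, 2.40-fold lower in batch B, a sum formed after the values were seen. Mmp9, the matrix protease of osteoclasts and neutrophils, averaged 473 and 528 CPM and did not pass (edgeR adjusted p = 0.763), whereas Acp5, the osteoclast acid phosphatase, fell by 1.81 on the log2 scale (SE 0.24, adjusted p = 6.92e-06). The 6 monocyte genes summed to 909.2 and 737.8 CPM, 1.23-fold lower, led by Fn1 (430.5 and 435.6 CPM), which mesenchymal cells also make. Of these 6 genes, Ly6c2 and Chil3 were called lower in batch B by edgeR, and Chil3 had means of 89.3 CPM (batch A) and 0.0279 CPM (batch B). Without Fn1 the monocyte sum was 478.7 and 302.2 CPM, 1.58-fold lower.

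Other cells of the Sox2-negative fraction also differed between batches. The 6 endothelial genes summed to 799.3 and 205.5 CPM in batches A and B, 3.89-fold lower, and all 6 were called lower. Globin and other erythroid genes went the other way, from 1092 to 56447 CPM, where they took 5.08% of all counts of a batch B Sox2-negative library on average. Epithelial genes in the Sox2-negative libraries summed to 202.4 and 366.9 CPM, and 4 of 8 were called higher in batch B. Dendritic and Langerhans cell genes summed to 288.0 and 57.3 CPM (3 of 5 tested called lower), lymphocyte genes to 80.1 and 32.8 CPM (0 of 5 called) and microglia genes to 82.4 and 139.0 CPM (0 of 2 called). The 7 mesenchymal genes summed to 11565 and 11654 CPM, and 1 of them was called, as higher in batch B. The batches differ in day, mice and depth. Day and mice cannot be told apart as sources of the lower macrophage genes. Over 9 alternatives, among them thinning to the smallest total, the log2 difference was -3.30 to -3.13 for Lyz2 and -2.21 to -1.97 for Tyrobp. It was -2.73 to -2.47 for C1qb and -2.67 to -1.97 for C1qa. The part of depth was not tested further.

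Summed levels in Sox2-positive cells, as a percentage of the Sox2-negative level in batches A and B, differed among the blood cell lists. They were 0.0435% and 0.0629% for neutrophil genes, 1.60% and 1.52% for osteoclast genes, 1.84% and 1.69% for monocyte genes, and 1.77% and 13.2% for mast cell genes. Lyz2 stood at 0.2995% and 2.57% and Cd68 at 10.8% and 26.9%. Of the 13 Sox2-positive libraries, Cd68 was read in 13, Lyz2 in 12, Mrc1 in 6, Cx3cr1 in 4, Csf1r, Adgre1, C1qa and Tyrobp in 1 each, and C1qb and C1qc in none. Counts there ranged from 2.58 to 44.1 for Cd68 and from 0 to 22.9 for Lyz2, and reached at most 4.93 for Mrc1 and 4.65 for Cx3cr1. Whether the Cd68 and Lyz2 counts came from epithelial cells or from other cells in the sort was not tested.

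**Figure D4:**
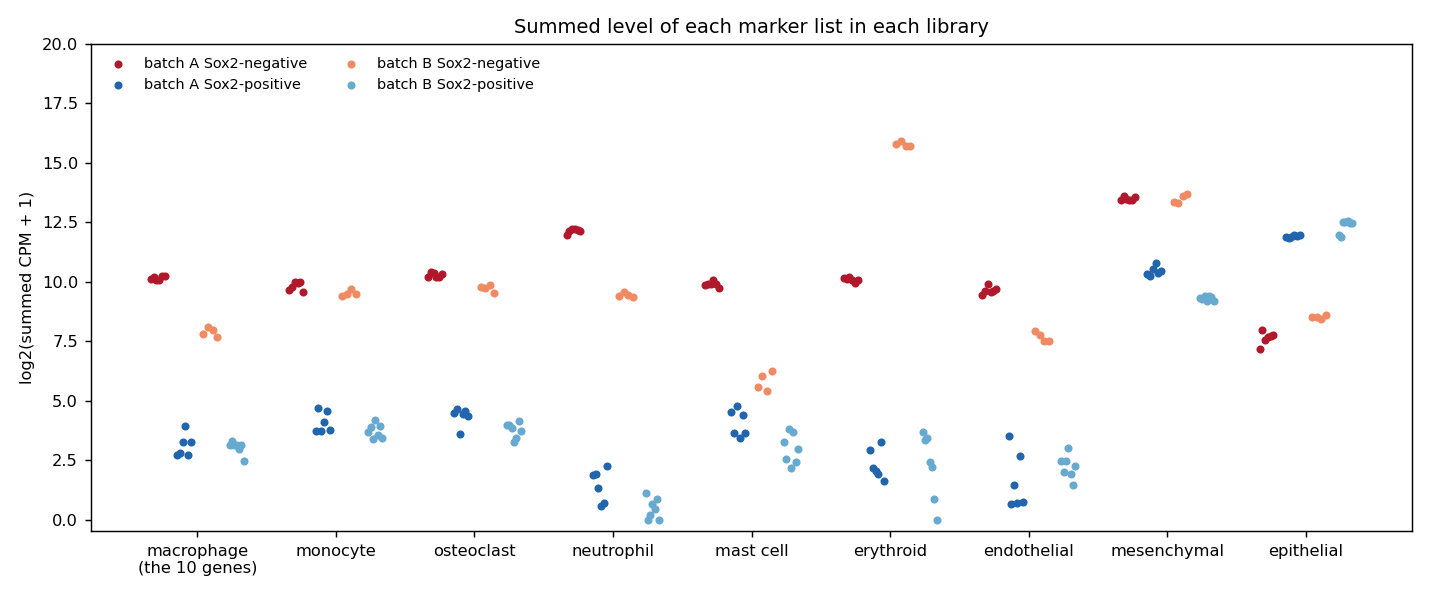
Summed level of the 10 macrophage genes and of marker lists of other cell types in each library, as log2(summed CPM + 1); each point is a library and colours mark the 4 groups. Within Sox2-negative cells, batch B lies below batch A for macrophage, osteoclast, neutrophil, mast cell and endothelial genes. It lies above batch A for erythroid and epithelial genes, and the batches overlap for monocyte and mesenchymal genes.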

How the data were processed

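Per the labels' protocols, RNA from sorted cells was made into Smart-seq2 libraries with Tn5 tagmentation. The authors deposited 1 table of estimated counts (expected counts) per gene and library, with no scaling to depth. Per the submitters' processing notes, FastQC, Trimmomatic, Salmon and build mm10 were used. Versions, the annotation and a strand setting are not given in the sources used here. Salmon spreads reads shared by similar genes, so counts of near-identical genes are uncertain.

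Counts were rounded and tested with edgeR 4.0.16 (TMM scaling, filterByExpr with a minimum count of 10, quasi-likelihood F test, Benjamini-Hochberg adjustment over all genes tested, called at an adjusted p under 0.05) in R 4.3.3. The 2 populations were compared with batch as a covariate and in each batch alone, and a model of 4 group means gave the batch differences and the interaction. P-values are two-sided. CPM uses TMM-scaled totals. The fit over both batches and, in the model of 4 group means, the Sox2-negative batch difference and the interaction were tested on simulated data. The fits of each batch alone and the Sox2-positive batch difference were not. Symbols came from GENCODE M21 (99.5% of 54347 identifiers matched), and gene positions are on GRCm38, of which mm10 is another name.

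The members and all gene lists were chosen with earlier results of these data known. Genes were named from the 10 members, Sox2, the 3 genes of each other list with the highest mean CPM, any gene called against the direction of its list, and the 5 genes with the profile most like the members' mean. C1s1, C3, Serping1, C2, C4b, Trem2, Spi1, Ptprc, Mertk, Lyz1, Ly6c2 and Hmgxb3 were named after their values were seen. A gene that the rule would name is not reported here. Libraries of a group were compared in 57 pairs, and the smallest chi-square divided by its degrees of freedom was 5.19, so none was counted as a duplicate. Alternatives were DESeq2 1.42.0, limma-voom (limma 3.58.1), other scalings, filters, thinning to the smallest total, batch B without its libraries 1 and 2, each library left out, and a replicate block. Fits of a single population, and osteoclast and monocyte sums without Mmp9 and Fn1, were added after seeing the data. Unused columns of per-sample values numbered 0.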

Additional observations from a re-analysis of the deposited data

Results flagged for a closer look

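Several values lay far from the other libraries of their group by Dixon's gap criterion, which chance passes in about 1 in 20 groups. Of 40 groups of member values 7 passed, and of 36 groups of summed lists 3 did. The 40 include Sox2-positive groups at 0 in every library, of 2 genes in batch A and 6 in batch B, which cannot pass. In 4 of the 7 every other library was at 0, so that any count in 1 library passes and the chance rate does not apply. In Sox2-negative cells, Adgre1 was high in batch A replicate 2 (29.4 CPM, next highest 15.3) and Mrc1 in batch A replicate 3 (50.3 CPM, next highest 20.6). In batch A Sox2-positive cells, Csf1r was at 11.98 CPM in replicate 4 and C1qa at 1.53 CPM in replicate 2, with every other library at 0. Also there, Adgre1 stood at 0.225 CPM in replicate 1 and Tyrobp at 0.210 CPM in replicate 2, each near 1 count. Cx3cr1 was at 0.656 CPM in batch B Sox2-positive replicate 2. The summed members reached 14.3 CPM in batch A Sox2-positive replicate 4, of which Csf1r made up 11.98 CPM. The summed neutrophil genes were low in batch A Sox2-negative replicate 1, at 3983 CPM. The summed osteoclast genes were low in batch A Sox2-positive replicate 3, at 10.99 CPM.

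The gap between the populations was called different between batches for 1 member and for the 6 other genes given here. The test was edgeR's interaction test (batch B minus batch A). The log2 values were 3.11 for Lyz2 (adjusted p = 0.000103), -1.06 for Calr (adjusted p = 4.76e-06), 1.42 for Maf (adjusted p = 0.000509) and 1.38 for Acp5 (adjusted p = 0.00522). They were -2.09 for Mmp9 (adjusted p = 0.0351), 7.17 for Cma1 (adjusted p = 0.0107) and 4.04 for Ifitm6 (adjusted p = 0.0451). Cma1 and Ifitm6 were at or near 0 in Sox2-positive libraries, so the size of their value is not readable. Other genes of the lists were also called in this interaction test and are not given. Of the 8 complement partners, for example, 2 were called, and only Calr is given here.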

How the results depend on the processing

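The 10 calls between populations over both batches held in every alternative, except that DESeq2 gave no adjusted p for Csf1r and so called 9. In batch A alone 9 to 10 members were called, and in batch B alone 6 to 10, the lowest of each after thinning. For all genes the calls ran from 5731 to 8502 in batch A and from 6668 to 10571 in batch B. The interaction called 1 member in every alternative but the fit without a filter, which called 2. For all genes the interaction gave 1210 calls, 481 without batch B libraries 1 and 2, and 557 with the replicate block. Between batches within Sox2-negative cells 4 members were called, 8 by limma-voom and 3 to 5 with a library left out. For all genes the count was 1924, against 754 without batch B libraries 1 and 2, 3113 by limma-voom, and 933 in the Sox2-negative libraries alone. Within Sox2-positive cells 1 member was called, 2 without a filter, 0 without batch B libraries 1 and 2, 0 by limma-voom, 0 in the Sox2-positive libraries alone, and 0 to 1 with a library left out. Over all genes 1785 were called there, 1159 without batch B libraries 1 and 2, and 3014 in the Sox2-positive libraries alone.

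Signs turned only for values that missed the threshold, all on the log2 scale. Il34 between populations went from -0.21 to 1.53 (limma-voom), 1.63 (replicate block) and, with a library left out, -0.47 to 0.78. The Adgre1 interaction went from -0.59 to 0.34 (DESeq2), 1.13 (limma-voom), 0.44 (thinned) and, with a library left out, -0.97 to 0.64. The C1qa interaction went from -1.32 to 2.13 by limma-voom and -1.60 to 2.35 with a library left out, and that of Csf1r from -5.26 to 0.14 by limma-voom and -5.56 to 1.001 with a library left out. Between batches within Sox2-positive cells, Cx3cr1 went from 1.01 to -1.81 without batch B libraries 1 and 2 and to a range of -0.59 to 1.56 with a library left out, and Lyz2 from -0.03 to 0.36 by limma-voom and -0.25 to 0.32 with a library left out. The libraries that turned a sign were batch A Sox2-negative 3 and batch B Sox2-negative 4 for Il34, batch A Sox2-positive 1, 2 and 4 for Adgre1, C1qa and Csf1r in that order, batch B Sox2-positive 2 for Cx3cr1, and batch A Sox2-positive 3 and 6 and batch B Sox2-positive 3, 4 and 7 for Lyz2. The causes were not tested.

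Same-numbered libraries of the 2 populations did not deviate together (r from -0.02 to 0.05 over 10 numbers), and few correlated best with their own number (0 of 6 in batch A and 2 of 4 in batch B), so numbers were not taken as pairs. The replicate block called 10 members over both batches, 10 in batch A, 8 in batch B and 1 in the interaction. Members near 0 in Sox2-positive cells are limited by depth: 3 counts correspond to up to 1.29 CPM.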
